A study of Drosophila melanogaster and Drosophila simulans and Drosophila erecta with 10 samples.

Results

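The data described here are RNA-seq levels from testes of Drosophila simulans, a close relative of Drosophila melanogaster, in 2 libraries from flies with a miR-983 knockout and 2 libraries from control flies. These are 4 of the 10 libraries in the series, taken by species and genotype, and all 6744 genes listed for them were used. Adults were 3 to 5 days old and were reared at 25 °C. By the series' design text, both libraries of each genotype are biological replicates. The labels give the genotypes only as miR-983 mutant and control, with no account of the alleles, the stock background or the number of flies per library. Stock background and handling therefore cannot be told apart from the knockout.

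A microRNA is a short RNA that guides an Argonaute protein to messages carrying a match to its seed, and binding lowers the stability or translation of those messages. Either strand of the hairpin can be loaded, so miR-983 has a 5p and a 3p arm with separate sets of predicted targets. miR-983 is an evolutionarily young, testis-expressed microRNA, and the study's title places it in work on the fate of microRNAs that arose de novo. The loss of a microRNA is generally expected to raise its targets, mostly by small amounts.

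Each gene carried 1 log2 level per library, as the authors deposited it. The quantity under the logarithm and any correction for gene length are not given, so a level here ranks genes only by the deposited value. Read totals do not accompany the values, and sequencing depth is unknown. The lowest value in any library was 1.00, so genes close to silent in either genotype are not listed. No D. simulans identifier (0 of 6744) was paired with a symbol in the sources used here. Genes are therefore described by level group and by predicted-target class, and only 4 are given by identifier. The testis label was not checked against marker genes, and miR-983 itself is not analysed here. In bulk tissue, fewer cells of a type and less RNA per cell cannot be told apart. Of the identifiers, 21 carried the same 4 values as another identifier, and 7 of these 21 passed the test described next, so their calls are not separate.

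Loss of miR-983 was first examined for its effect on single testis transcripts, knockout against control. In all, 2091 genes (31.0% of those tested) differed past the threshold (limma with an empirical Bayes trend on 2 libraries of each genotype, at a Benjamini-Hochberg adjusted p under 0.05). Of these, 1132 (16.8%) were higher in the knockout and 959 (14.2%) were lower. The changes were mostly small. Among the 2091 genes, 82.4% differed by less than 1.5-fold, and the median log2 fold change was 0.40 for the rises and -0.33 for the falls. A change of at least 2-fold was reached by 87 genes (1.29%), of which 49 rose (0.727%) and 38 fell (0.563%). A change of at least 4-fold was reached by 2 rises and 3 falls. When a change had to exceed 1.2-fold with the error taken into account (limma treat), 366 genes passed, 201 higher and 165 lower. With control replicate 1 left out 1241 genes passed, and with control replicate 2 left out 1370 passed. With a library left out, its genotype has 1 sample, which is assumed to vary like the pair of the other genotype.

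**Figure D1:**
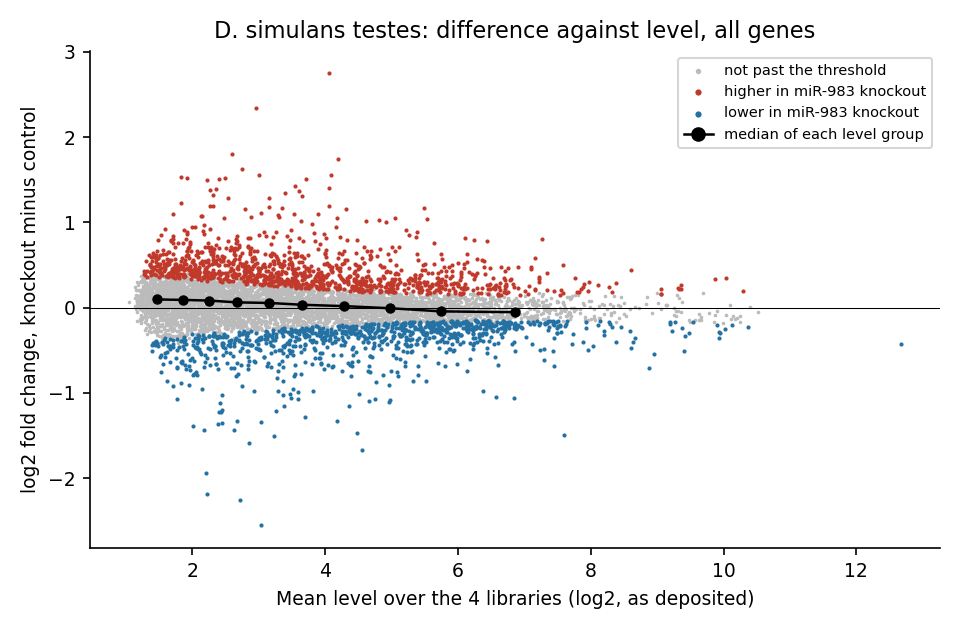
Log2 fold change (knockout minus control, y axis) against the mean level over the 4 libraries (log2 as deposited, x axis) for the 6744 D. simulans genes; red and blue points are genes past the threshold, and the black line joins the medians of 10 level groups. The 1132 rises and 959 falls form bands on both sides of 0, and the medians of the level groups slope from 0.10 down to -0.05.

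The largest rise was that of FBgn0188568, which has no mark as a predicted miR-983 target. Its log2 level was 5.43 and 5.44 in the knockout libraries, against 2.74 and 2.63 in the control libraries. The genotypes were far apart and the knockout libraries lay almost on top of each other. The log2 fold change was 2.75 ± 0.07 (SE), or 6.71-fold higher in the knockout (limma adjusted p = 6.46e-10).

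FBgn0189817, also unmarked, was at 4.13 and 4.13 in the knockout libraries, against 2.10 and 1.48 in the control libraries. Both knockout values exceeded both control values, but the controls differed from each other by more than most genes did. The log2 fold change was 2.34 ± 0.16 (SE; limma adjusted p = 1.06e-06), and it ranged from 2.03 to 2.65 with 1 library left out.

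The largest fall was that of FBgn0269854, again without a target mark. Its log2 level was 1.78 and 1.74 in the knockout libraries, against 4.33 and 4.29 in the control libraries. The log2 fold change was -2.55 ± 0.09 (SE), or 5.86-fold lower in the knockout (limma adjusted p = 8.19e-09). FBgn0269623 stood at 1.67 and 1.53 in the knockout libraries, against 3.69 and 4.004 in the control libraries (log2 fold change -2.25 ± 0.12, SE; limma adjusted p = 1.92e-07). Neither fallen gene overlapped between genotypes, and in the knockout both were under 2, where the lowest listed value was 1.00. All 4 genes carry the DESeq2 mark in the authors' deposited table.

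**Figure D2:**
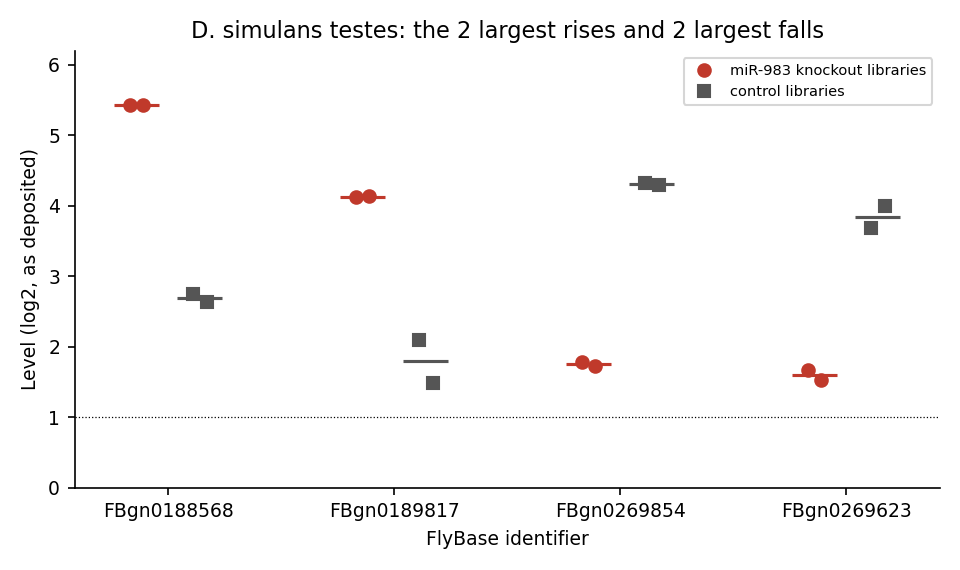
Log2 level as deposited (y axis) of the 2 largest rises and the 2 largest falls (x axis, FlyBase identifiers) in each of the 4 libraries; circles are knockout libraries, squares control libraries, horizontal bars group means, and the dotted line marks a level of 1. In FBgn0188568 the knockout libraries are at 5.43 and 5.44, against 2.74 and 2.63 in the controls, and in FBgn0269854 they are at 1.78 and 1.74, against 4.33 and 4.29.

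The floor on listed values limits what a 2-fold change can look like. A gene whose control mean is under 2 cannot be listed with a 2-fold fall, and one whose knockout mean is under 2 cannot be listed with a 2-fold rise. There were 1200 genes with a knockout mean under 2 and 1331 with a control mean under 2. Among the 5255 genes with both means at or above 2, 30 rose and 23 fell by at least 2-fold. A further 19 rises had a control mean under 2, and 15 falls had a knockout mean under 2. Of the 87 genes with a 2-fold change, 50 lay in the lower 5 of 10 level groups and 37 in the upper 5.

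The knockout and control libraries were apart in most genes. Both knockout libraries lay above both controls in 2574 genes (38.2%) and below both in 2044 (30.3%), which together is 68.5% of genes. In the D. melanogaster libraries of the series the shares were 17.9% above and 24.3% below. All 2091 called D. simulans genes were among the 68.5%, which passing a test of 2 against 2 libraries makes likely. In 648 genes the knockout libraries fell on opposite sides of both controls, and in 463 of these it was knockout replicate 1 that lay above. Differences formed from separate libraries also ran together. Knockout replicate 1 minus control replicate 1 and knockout replicate 2 minus control replicate 2 had the same sign in 77.7% of genes (Pearson r = 0.81 across 6744 genes, which are not independent). With the controls exchanged, the share was 76.7% (r = 0.79). In the lowest of 10 level groups agreement was 68.5% and 66.8% for the pair of pairings, and in the highest group it was 84.4% and 80.7%.

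The spread between replicates was larger in the knockout and shrank with level. The median absolute difference was 0.10 between the knockout libraries and 0.07 between the controls on the log2 scale. In the lowest level group it was 0.17 between knockout libraries and 0.09 between controls. In the highest level group it was 0.07 between knockout libraries and 0.04 between controls. The median absolute log2 fold change was 0.17 in the lowest group and 0.14 in the highest. The share of genes called was 15.1% in the lowest level group and 42.5% in the highest. In this fit strongly expressed genes thus passed more often, with a smaller spread between libraries and changes that were no larger. The gradient in calls depended on the empirical Bayes trend. In limma without the trend the lowest group held 82 rises and 34 falls, and the highest 42 rises and 75 falls.

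The second question was how each knockout library departed from the controls along the level axis. Genes were ranked by their mean over the 4 libraries and divided into 10 groups of 674 or 675 genes. Knockout replicate 1 was shifted upward in weakly expressed genes and downward in strongly expressed genes. Its median difference from the control mean was 0.17 in group 1, 0.13 in group 3, 0.09 in group 5, 0.03 in group 7, -0.06 in group 9 and -0.07 in group 10. It lay above the control mean in 76.0% of the genes of group 1 and in 35.7% of those of group 10.

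Knockout replicate 2 was shifted in the same direction by much less. Its median difference from the control mean was 0.03 in group 1, 0.03 in group 3, 0.02 in group 5, 0.01 in group 7, -0.03 in group 9 and -0.03 in group 10. It lay above the control mean in 54.9% of the genes of group 1 and in 43.3% of those of group 10. The D. simulans controls did not show such a slope against each other. Control replicate 1 minus control replicate 2 had a median of -0.01 in group 1 and -0.01 in group 10. The lowest of the 10 group medians was -0.02. Between the D. melanogaster controls, however, the same difference was 0.02 in group 1 and -0.03 in group 10. A slope about the size of that in D. simulans knockout replicate 2 thus also occurred between libraries of 1 genotype. The 2 D. simulans knockout libraries differed from each other at low level, by 0.16 in group 1 and by -0.05 in group 10 (replicate 1 minus replicate 2).

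**Figure D3:**
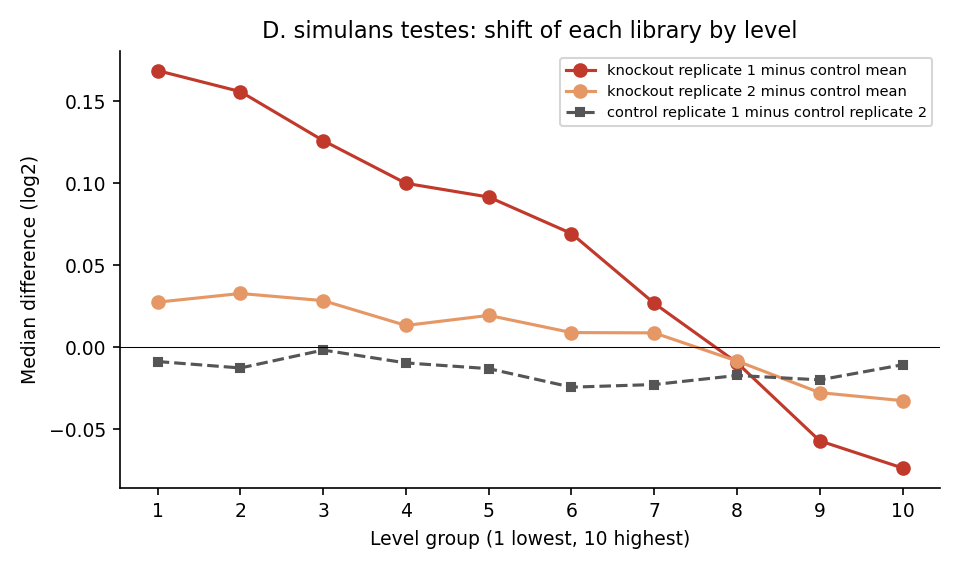
Median difference in log2 level (y axis) in 10 groups of genes ranked by mean level (x axis, 1 lowest); solid lines are each knockout library minus the control mean, and the dashed line is control replicate 1 minus control replicate 2. Knockout replicate 1 runs from 0.17 in group 1 to -0.07 in group 10 and knockout replicate 2 from 0.03 to -0.03, while the controls stay between -0.02 and 0 relative to each other.

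The drop between group 1 and group 10 was 0.24 for knockout replicate 1 and 0.06 for knockout replicate 2. Ranking by a mean that includes the tested library changes its apparent slope, so genes were also ranked by 1 control and compared with the other. Ranked by control replicate 1 and set against control replicate 2, the median was 0.25 in group 1 and -0.10 in group 10 for knockout replicate 1, and 0.08 and -0.05 for knockout replicate 2. The drop was then 0.35 for knockout replicate 1 and 0.13 for knockout replicate 2. With the controls exchanged, it was 0.34 for knockout replicate 1 and 0.13 for knockout replicate 2. The direction was the same in both knockout libraries under each ranking, and the drop was larger in both when the ranking used a control alone. The controls share a genotype, so ranking by either control selects on levels common to both. That selection can itself enlarge the drop, and the larger values are not separate support for it. Quantile normalization and cyclic loess, which are built to align the libraries at each level, reduced the drop in replicate 1 to 0.01 and 0.00.

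The range of expression levels was compressed in knockout replicate 1, and only slightly in knockout replicate 2. The SD of log2 levels over genes was 1.74 and 1.80 in the knockout libraries, against 1.81 and 1.82 in the controls. The first percentile was at 1.29 and 1.16 in the knockout libraries, against 1.11 and 1.13 in the controls. The 99th percentile was at 8.80 and 8.86 in the knockout libraries, against 8.89 and 8.91 in the controls. Levels under 2 were found in 1077 and 1284 genes of the knockout libraries, against 1343 and 1324 genes of the controls. The SD also differed between the 2 D. melanogaster controls, at 1.74 and 1.76.

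Unlogged, the 10 highest genes held 7.02% and 6.96% of the summed level in the knockout libraries, against 8.06% and 7.53% in the controls. The 100 highest held 28.6% and 29.3% in the knockout libraries, against 30.6% and 30.0% in the controls. Each library's deviation from the mean of the 4 libraries was also fitted on level. Deviations from a shared mean cancel out across libraries, so a negative slope in knockout replicate 1 raises the other slopes. The slope was -0.030 and 0.004 per log2 unit in the knockout libraries, against 0.012 and 0.014 in the controls. The mean slope of the knockout libraries was lower by 0.026 (exact permutation test over libraries, two-sided p = 0.333, the smallest that 2 against 2 allows).

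Rises and falls were spread unevenly along the level axis. In the lowest level group 74 genes (10.98%) rose and 28 (4.15%) fell. In group 6 the counts were 146 (21.7%) and 103 (15.3%). In the highest group 98 genes (14.5%) rose and 189 (28.0%) fell. The share that fell was higher in each of groups 8 to 10 than the share that rose, and lower in groups 1 to 7. The lowest group held 48 rises and 23 falls without knockout replicate 1, and 191 rises and 14 falls without knockout replicate 2. Without control replicate 1 or 2 the lowest group held 21 or 29 rises and 17 or 11 falls, and the highest 90 or 93 falls. The highest group held 62 rises without control replicate 1. After cyclic loess the lowest group held 60 rises and 67 falls, and the highest 139 rises and 130 falls.

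**Figure D4:**
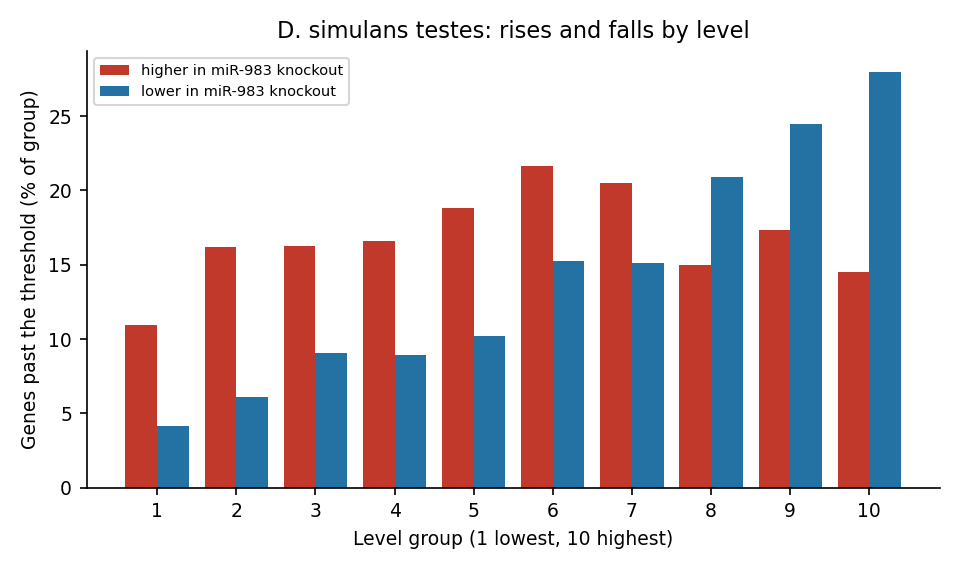
Share of genes past the threshold (y axis, percent of the group) in each of 10 level groups (x axis, 1 lowest); red bars are genes higher in the knockout and blue bars genes lower in the knockout. Rises make up 10.98% and falls 4.15% of group 1, against 14.5% and 28.0% of group 10.

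The level-dependent shift held a small part of the variation between genes. The 10 level groups accounted for 5.57% of the variance across genes of the difference between knockout replicate 1 and the control mean, and for 0.377% in knockout replicate 2. For the fold change of the genotype means they accounted for 2.44%. Subtracting each group's own median left the median absolute log2 fold change at 0.15, against 0.16 before. Most called genes kept their call once the libraries were aligned. After cyclic loess 1079 genes rose and 1072 fell, and 998 of those rises and 846 of those falls were also called on the deposited values. That is 88.2% of the first list and 85.7% of the second, and 0 genes were called in opposite directions. After quantile normalization 86.8% of the first list was kept.

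The calls were set beside the mark in the authors' deposited table for genes past p 0.05 by DESeq2. That table marks 1206 genes (17.9%), of which 1164 are called here. The overlap is 96.5% of the marked genes and 55.7% of the called genes. By the fold change computed here, 621 marked genes were higher in the knockout and 585 were lower. The marked genes had a median absolute log2 fold change of 0.43, and the called genes without a mark had 0.30. In the lowest level group 33 marked genes were higher and 12 lower, and in the highest 47 were higher and 142 lower. The same turn from rises to falls along the level axis was thus present among the marked genes. Their direction and level group were computed here from the same libraries, so this is not separate support for the turn.

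The third question was where the predicted miR-983 targets stood. The authors' deposited table marks targets in 3 columns: TargetScan, which predicts sites from conserved seed matches, for the 5p and the 3p arm, and PITA, which weighs the accessibility of a site in the folded message, for the 5p arm. At least 1 mark was carried by 617 genes, 1 mark by 525, 2 marks by 87 and all 3 by 5. The targets lay lower on the level axis than unmarked genes. Their median log2 level was 2.81, against 3.48 in the 6127 unmarked genes, and 40.0% of them lay in the lowest 3 level groups, against 29.0% of unmarked genes. Because low level itself went with an upward shift, targets were compared with unmarked genes of the same level groups.

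Of the 617 targets 114 rose (18.5%) and 45 fell (7.29%), beside 16.8% and 14.2% over all genes tested. Unmarked genes weighted to the targets' level groups rose in 16.4% and fell in 12.3%. The share of targets that fell was 7.62 percentage points below that of all unmarked genes and 5.00 points below that of unmarked genes weighted by level. Targets fell less often than unmarked genes in 9 of 10 level groups, the exception being group 3, with 9.21% against 9.02%. They rose more often in 5 of 10. The 114 rises became 57 without control replicate 1, 75 without control replicate 2 and 66 without knockout replicate 1. The 45 falls became 17 and 21 without control replicate 1 and 2. These shares are a description of genes that share libraries, and the difference was not tested.

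The median log2 fold change was 0.09 for the targets, 0.02 for unmarked genes and 0.03 for all genes. The target median was 0.04 without knockout replicate 1, and 0.035 after quantile normalization and 0.035 after cyclic loess. The target median was above the unmarked median in each of the 10 level groups, and in D. melanogaster in 6 of 10. The 10 groups share the same 4 libraries, so they are not separate support. In D. simulans the target median was 0.16 against 0.08 in group 2 and 0.063 against 0.059 in group 4. It was 0.09 against 0.05 in group 5 and -0.01 against -0.05 in group 10. The mean log2 fold change of targets was 0.10, against 0.05 for unmarked genes weighted to the same level groups, a difference of 0.05.

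**Figure D5:**
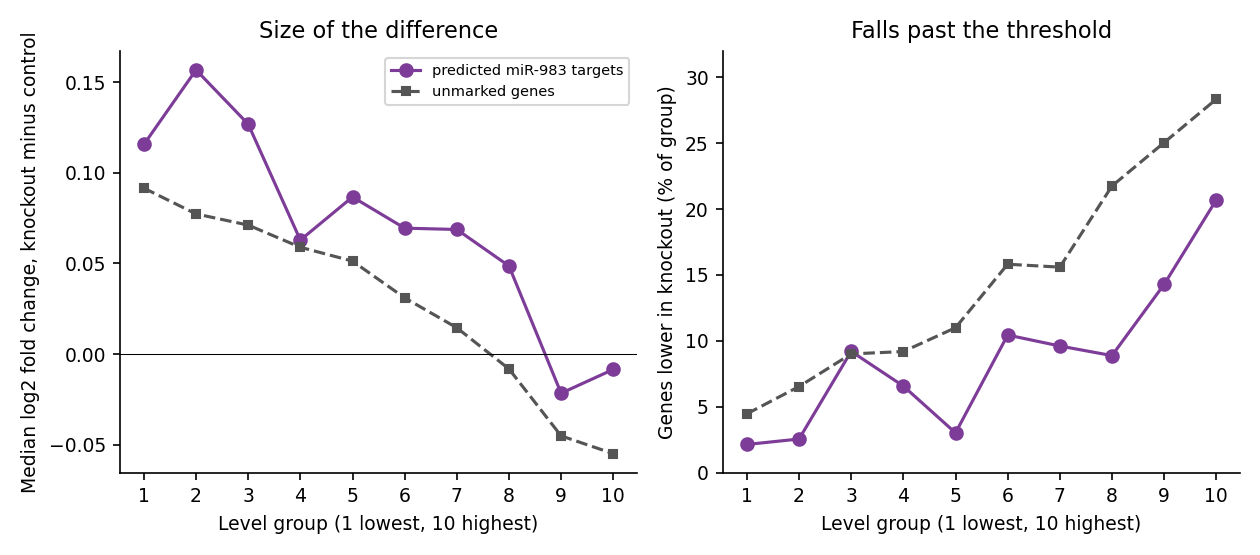
Predicted miR-983 targets (solid line) and unmarked genes (dashed line) in 10 level groups (x axis, 1 lowest); the left panel gives the median log2 fold change, knockout minus control, and the right panel the percent of genes past the threshold and lower in the knockout. The target median is the higher one in each of the 10 groups, and targets fell less often in 9 of 10.

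The offset of the targets from unmarked genes of like level was present in both knockout libraries. Measured as a mean difference from the control mean, it was 0.06 in knockout replicate 1 and 0.04 in knockout replicate 2. Against single controls it ran from 0.04 (replicate 2 minus control replicate 2) to 0.06 (replicate 1 minus control replicate 1). Between the controls it was -0.004 (replicate 1 minus replicate 2), but between the D. melanogaster controls the same measure was 0.04, so an offset of this size also occurred between libraries of 1 genotype.

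The targets were next divided by their number of marks, and differences between these classes were not tested. Of the 525 genes with 1 mark 17.5% rose and 7.81% fell, and their median log2 fold change was 0.08. Unmarked genes weighted to the level groups of these 525 rose in 16.6% and fell in 12.6%. Of the 87 genes with 2 marks 24.1% rose and 3.45% fell (21 and 3 genes), with a median of 0.11. Unmarked genes weighted to the level groups of these 87 rose in 15.7% and fell in 10.96%. Of the 5 genes with all 3 marks 1 rose and 1 fell.

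Genes predicted for both arms, each with 2 or 3 marks and so also in the classes above, numbered 37. Of these 12 rose (32.4%) and 2 fell (5.41%), where unmarked genes of like level rose in 14.9% and fell in 10.1%. Their median log2 fold change was 0.17, from a median of 0.26 in knockout replicate 1 and 0.08 in knockout replicate 2. The rises numbered 6 without knockout replicate 1 and 2 without control replicate 1. The 60 genes on which both programs concurred for the 5p arm held 11 rises (18.3%) and 3 falls (5.00%), with a median of 0.09, where unmarked genes of like level rose in 15.6% and fell in 10.96%. The 180 genes marked for the 3p arm alone held 30 rises (16.7%) and 14 falls (7.78%), with a median of 0.10, where unmarked genes of like level rose in 16.4% and fell in 13.3%. Among the 617 targets 4 rose (0.648%) and 2 fell (0.324%) by at least 2-fold, beside 0.727% and 0.563% over all genes.

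The D. melanogaster libraries of the same design serve as a background for the size and the slope. There 167 of 7326 genes (2.28%) were called in the knockout, 77 higher (1.05%) and 90 lower (1.23%). The D. melanogaster count was 304 and 259 without control replicate 1 and 2, and 503 with a replicate block. The median absolute log2 fold change was 0.16 in D. simulans and 0.07 in D. melanogaster, while the median absolute difference between the knockout libraries was 0.10 in both species. The called genes had a median absolute log2 fold change of 0.37 in D. simulans and 0.62 in D. melanogaster. In D. melanogaster the median difference from the controls was 0.00 in level group 1 and -0.06 in group 10 for knockout replicate 1. For knockout replicate 2 it was -0.00 and 0.01. Control replicate 1 minus control replicate 2 was 0.02 in group 1 and -0.03 in group 10 there. The 852 D. melanogaster genes with a target mark had a median log2 fold change of -0.00, and their mean offset from unmarked genes of like level was 0.003. That offset ran from -0.03 (knockout replicate 2 minus control replicate 1) to 0.04 (knockout replicate 1 minus control replicate 2) over single pairs of libraries. Between the D. melanogaster controls it was 0.04 (replicate 1 minus replicate 2), about the size of the offset in D. simulans knockout replicate 2. No gene could be matched between the tables by identifier (0 shared), so the difference between species was not tested.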

How the data were processed

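RNA-seq levels from D. simulans testes were taken from the gene table, as log2 values the authors deposited, with 1 column per library. The submitters' processing notes name TopHat. Counter, build, annotation, strand handling and scaling were not given in the sources used here. As deposited, the log2 fold change of the authors is the knockout mean minus the control mean. Target marks and the DESeq2 mark are the authors', per the file headers. All table columns were mapped (0 left out). Small RNA tables were not used.

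D. simulans and D. melanogaster were fitted apart with limma 3.58.1 (R 4.3.3; empirical Bayes trend, two-sided, Benjamini-Hochberg over all genes, threshold 0.05), with no filter, since the table already has a floor. The script was tested on simulated data. The labels do not tie libraries to flies or cultures, so p-values measure the spread between these libraries. Genes were ranked into 10 level groups. Shares for unmarked genes were weighted by the number of targets in each group. Identifiers were named by 1 rule: past the threshold with no overlap of genotypes, the 2 largest changes in each direction. The comparisons, lists and rules were chosen with earlier results of these data known. Marker lists were not used, since 0 identifiers have a symbol. Alternatives were other scalings, variance models, filters, level rankings, a replicate block and each library left out.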

Additional observations from a re-analysis of the deposited data

How the results depend on the processing

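The 4 named genes kept their direction and their call in each refit that included them. That made 54 results of 1 gene in 1 refit, with limma adjusted p up to 0.0014. FBgn0189817 and FBgn0269623, with mean levels of 2.96 and 2.72, were absent from the refit limited to a mean of at least 3. With 1 library left out, the calls ranged from 1241 to 2491 (rises from 659 to 1515, falls from 580 to 976) and the 2-fold changes from 83 to 89. In the lowest level group rises then ranged from 21 to 191 and falls from 11 to 23. In the highest group rises ranged from 62 to 107 and falls from 90 to 250. Among all 617 targets rises ranged from 57 to 165 and falls from 17 to 42, and those marked and called in the authors' deposited table from 911 to 1141. The treat test against 1.2-fold left 366 calls (201 higher, 165 lower), with 3 rises and 2 falls in the lowest group, 12 and 21 in the highest, 20 and 6 among targets, 344 marked by the authors, and a level-adjusted gap in target falls of -1.40 percentage points. Restricting the table to a mean log2 level of at least 3, which leaves fewer genes, gave 724 rises, 50 2-fold changes, 56 rises and 108 falls in the highest group and 68 target rises. The level-adjusted gaps in target falls and rises were then -7.51 and 5.45 percentage points. Quantile normalization and cyclic loess gave 63 and 67 falls in the lowest group and a drop of 0.012 and 0.0026 in knockout replicate 1. Median centring gave 52 rises in the highest group, and limma without the trend 42 rises and 75 falls there; the cause was not tested. The gap in target falls was negative in all 14 refits. The gap in target rises was below 0 in 2 of 14, without control replicate 1 (-0.10) and without knockout replicate 1 (-0.30). With a replicate block the calls numbered 2372 (1296 higher, 1076 lower), and no D. simulans count moved by over 1.5 times. The labels do not say whether a replicate number marks a shared batch, and this was not tested. The deviations of same-numbered libraries had a correlation of 0.057 across genes in D. simulans and 0.147 in D. melanogaster, with 2 pairs in each. In D. melanogaster, knockout minus control differences of same-numbered libraries had the same sign in 64.1% of genes. With the controls exchanged it was 51.7%. In D. melanogaster the block gave 503 calls, and leaving out 1 library gave 118 to 304. The D. melanogaster fits, the leaving out of identifiers with shared values and the reruns of counts by level group, replicate spread and the authors' mark were chosen after the data were seen. The unknown depth prevents an interval on any single level.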
